A study of Drosophila melanogaster with 4 samples.

Results

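The Enhancer of split complex, E(spl), on chromosome arm 3R of *Drosophila melanogaster* holds 7 neighbouring genes for basic helix-loop-helix (bHLH) proteins. They are E(spl)mdelta-HLH, E(spl)mgamma-HLH, E(spl)mbeta-HLH, E(spl)m3-HLH, E(spl)m5-HLH, E(spl)m7-HLH and E(spl)m8-HLH, 7 of the 4226 genes of 3R in the gene table used here. The genes were chosen by name, and the peaks by position: every called peak overlapping 3R from 21800000 to 21900000 on release 5 of the genome was taken. This gave 10 peaks, of 788 on 3R and 4198 in the whole list. All 10 are described, with no filter on score.

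Notch is a transmembrane receptor. When a ligand on a neighbouring cell activates it, its intracellular domain is cut free, enters the nucleus and joins the DNA-binding protein Su(H) and the coactivator Mastermind. The E(spl) bHLH genes are the best known targets of this step. Their products are repressors that recruit the corepressor Groucho, and in the imaginal discs of the larva they hold back neural fate in cells next to a chosen precursor.

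The assay was chromatin immunoprecipitation and sequencing (ChIP-seq) on whole wandering larvae of the third instar (L3). The strain is labelled Notch-GFP, with genotype PBac{y[+]-attP-3B}VK00033 and, as transgene, the genomic coding region of Notch. The sex of the larvae is unknown, and the growth protocol in the labels names y; bw cn sp flies. All 4 libraries share this genotype: 2 were made from DNA precipitated with the rabbit antibody ab290 against green fluorescent protein (GFP), and 2 from input DNA. The labels name no untagged larvae and no control antibody, so enrichment unrelated to the tag cannot be told apart, and a whole larva mixes tissues in which Notch is active with others in which it is not. The result is 1 list of peaks with no value per library, so no peak below has a replicate error and no test between groups could be made. Read depth is unknown, and a gene with no peak is one where none was called, which does not show that tagged Notch was absent. Each peak has the authors' deposited score, whose scale and threshold no source used here gives, and scores were only ranked within this list.

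The peaks lie on release 5 and the gene table on release 6. Gene positions on 3R were therefore moved by a single shift, release 6 minus 4174278 bases. The list itself was used to check it. With that shift, the centres of 208 of the 788 peaks of 3R (26.4%) lay within 250 bp of an annotated gene end, against a median of 91 peaks (11.5%) over all shifts from 3 to 6 Mb. The count formed 2 maxima on either side of the shift used, 242 peaks at 220 to 255 bp above it and 230 peaks at 266 bp below it. No shift over 2 kb away gave more than 142. In the segment of 5 Mb that holds the E(spl) genes, 37 of 119 peaks (31.1%) lay near a gene end at the shift used, against a median of 14 over all shifts. The best count there, 50 peaks, was reached on both sides of it, as far as 172 bp below and 271 bp above, but not at the shift used itself. In the segment of 5 Mb that holds the Hox gene Ubx, it lay 223 to 231 bp above. At Ubx itself no check was possible: moved by this shift, the gene held 1 peak, from 12528643 to 12528971 with a score of 21.44, and the 42 peaks within 500 kb of it gave no single best shift. Distances to genes below should be read to within about 250 bp, and an overlap or a gap smaller than this is uncertain. The gene table gives no strand, so "left" and "right" mean lower and higher coordinates, and the end at which transcription starts was not assigned.

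**Figure D1:**
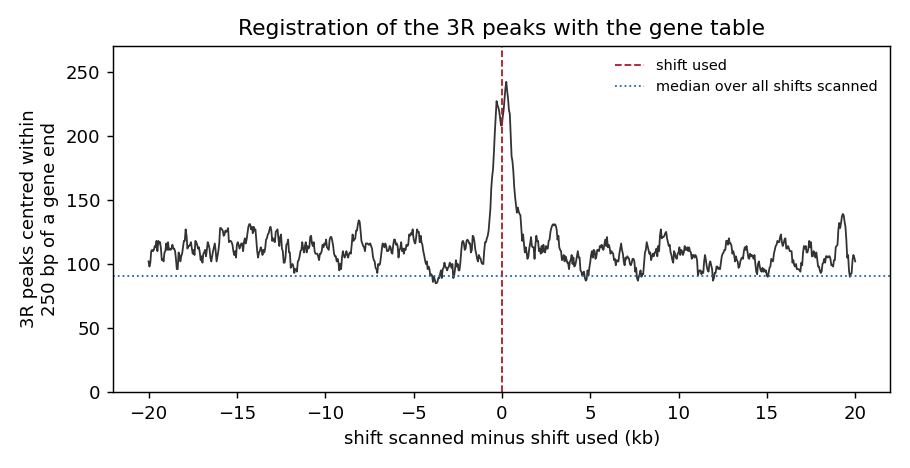
The vertical axis counts peaks of 3R centred within 250 bp of an annotated gene end, and the horizontal axis is the shift tried minus the shift used, in kb. The counts rise to 242 peaks just beside the shift used, against a median of 91 (dotted line) over all shifts scanned.

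The 10 peaks fell into a set of low to middling scores among the bHLH genes and 3 higher scored peaks outside them. The 7 genes together span 43.4 kb, and 7 of the 10 peaks (numbered 2 to 8 from left to right) lay between their outer ends. These 7 scored from 8.76 to 42.79, with a median of 12.04. The 3 peaks outside, numbered 1, 9 and 10, scored 91.76, 196.32 and 53.53. They lay 13.9, 0.56 and 11.2 kb from the nearest bHLH gene, so only peak 9 was close to one. No peak between the outer bHLH genes scored as high as any of these 3.

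**Figure D2:**
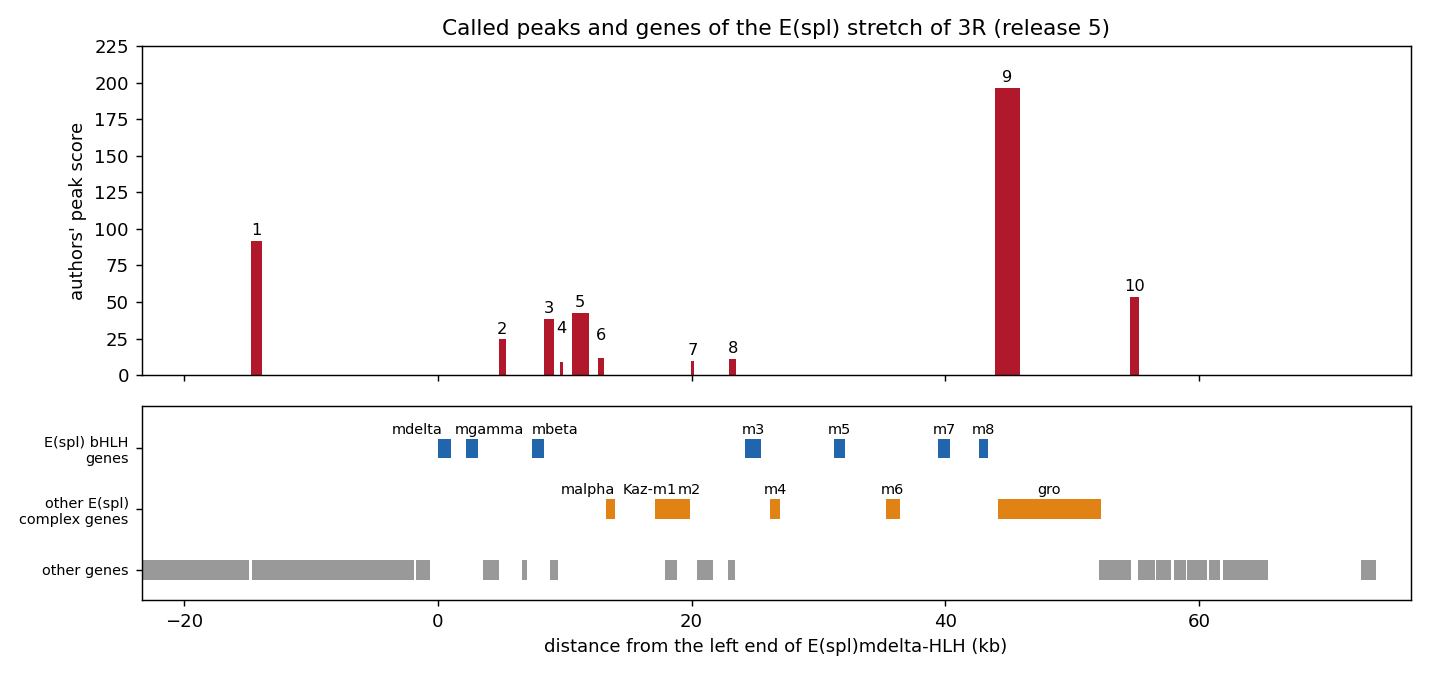
Upper panel: each bar is 1 called peak, drawn to its width, with the authors' score as its height. Lower panel: genes of the stretch, with the 7 bHLH genes on top, the other genes of the complex in the middle (E(spl) and the suffixes -HLH and -BFM left out of the names) and the remaining genes at the bottom. Peaks 2 to 8 lie between the outer bHLH genes, and peak 9, the highest at 196.32, lies at the left end of gro.

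At the left of the complex, E(spl)mdelta-HLH and E(spl)mgamma-HLH, whose repressors act in eye and neural development, had no peak over them. Their nearest peak was the same one, peak 2 (21828136 to 21828708, 573 bp wide, score 24.44). It began 3.78 kb to the right of E(spl)mdelta-HLH and 1.65 kb to the right of E(spl)mgamma-HLH. Peak 2 also covered 51 bases at the right end of the long noncoding RNA gene lncRNA:CR45037, and 47.3% of the peaks of 3R scored lower. To the left of E(spl)mdelta-HLH, the nearest peak was 13.9 kb away.

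E(spl)mbeta-HLH, a repressor gene known from wing vein patterning, was the bHLH gene with the most peaks around it. Peak 3 (21831735 to 21832520, 786 bp wide, score 38.61) covered 11 bases at its right end and 297 bases of lncRNA:CR45039. An overlap of 11 bases is smaller than the uncertainty of the shift. With the shift that best aligned the peaks of 3R, 248 bp above the one used, the gap was 237 bp. A shift below the one used, where the other maximum lay, moves the gene further into peak 3 and was not applied. Rightwards followed peak 4 (21832953 to 21833183, 231 bp, score 8.76) and peak 5 (21833933 to 21835231, 1299 bp, score 42.79). Peak 6 (21835997 to 21836409, 413 bp, score 12.04) came next. At the shift used, peaks 4, 5 and 6 overlapped no annotated gene and lay 1.21, 2.19 and 4.25 kb from E(spl)mbeta-HLH. Peak 4 lay 157 bp from lncRNA:CR45039. That gap, like the one from peak 6 to its nearest gene, is within the error of about 250 bp. Only for peak 5 was the lack of overlap beyond this error, with 1137 bp to the nearest gene. Peak 6 was closer to E(spl)malpha-BFM, at 205 bp, than to any bHLH gene.

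Peaks 3 to 6 thus stood together within 4.67 kb, with 432 to 765 bp between neighbours. On 3R, 9 of the 785 runs of 4 neighbouring peaks were no longer than this. Including peak 2, E(spl)mbeta-HLH had 5 peaks within 5 kb of it. Only 0.6% of the 4206 genes of 3R that could be placed had as many, and 62.7% had none. The run of 4 and this gene were singled out after the peaks were seen. The small shares therefore describe picked cases and are no measure of rarity. The same group of peaks serves its neighbours: lncRNA:CR45039 also had 5 within 5 kb. E(spl)malpha-BFM and lncRNA:CR45038 had 4 each, a number that 1.6% of placed genes reach. When peaks within 1 kb were merged, peaks 3 to 6 became 1 region and the stretch held 7, so the 5 peaks near E(spl)mbeta-HLH became fewer. Whether such close peaks are in fact 1 broader enriched region was not tested.

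In the middle of the complex, E(spl)m3-HLH had a weak peak beside it. Peak 8 (21846304 to 21846880, 577 bp, score 10.85) ended 664 bp to the left of the gene and covered 495 bases of lncRNA:CR43644. Only 10.3% of the peaks of 3R scored lower. Peak 7 (21843278 to 21843543, 266 bp, score 9.49) lay 4.0 kb to the left of E(spl)m3-HLH and 85 bp to the right of E(spl)m2-BFM. These 2 peaks and peak 4 were the weakest of the 10.

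From 21846881 to 21867290, a run of 20.4 kb, no peak was called. This run holds 4 of the 7 bHLH genes whole, E(spl)m3-HLH, E(spl)m5-HLH, E(spl)m7-HLH and E(spl)m8-HLH, together with E(spl)m4-BFM and E(spl)m6-BFM. Gaps of this length are common on the arm, where 331 of 787 gaps between neighbouring peaks (42.1%) were longer and the median was 14.69 kb. E(spl)m5-HLH stood farthest from any peak of the 7 genes, 7.70 kb to the right of peak 8 and 11.8 kb to the left of peak 9. It was the only one of the 7 with no peak within 5 kb.

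At the right end, E(spl)m7-HLH and E(spl)m8-HLH, whose repressors act in sensory organ and eye patterning, shared the strongest peak of the stretch as their nearest. Peak 9 (21867291 to 21869198, 1908 bp, score 196.32) began 560 bp to the right of E(spl)m8-HLH and 3.55 kb to the right of E(spl)m7-HLH. It ranked 19 of the 788 peaks of 3R and 130 of the 4198 in the list. Most of it, 1741 bases, lay inside the next gene, gro, and covered its left end. gro encodes Groucho, the corepressor that the E(spl) proteins bind. The list cannot say whether this peak belongs to E(spl)m8-HLH, to gro or to both.

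**Figure D3:**
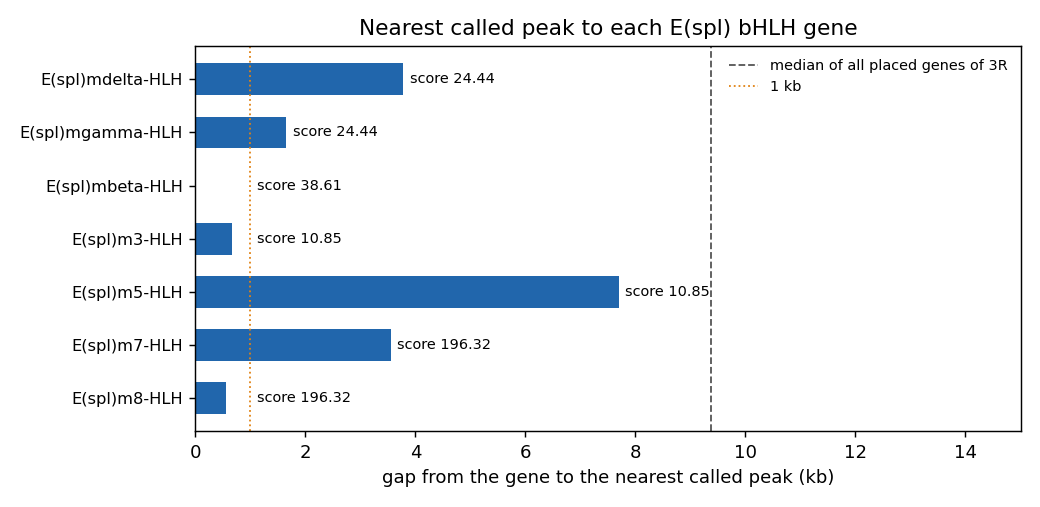
Each bar is the gap in kb from a bHLH gene to its nearest called peak, labelled with that peak's score. The dashed line marks the median of 9.38 kb over the placed genes of 3R and the dotted line 1 kb. E(spl)mbeta-HLH has no bar because its gap is 0, and all 7 gaps lie below the median.

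Counted by gene, 3 of the 7 bHLH genes had a peak within 1 kb of an annotated end. They were E(spl)mbeta-HLH (score 38.61), E(spl)m3-HLH (10.85) and E(spl)m8-HLH (196.32). Over all 4206 placed genes of 3R the share was 19.7%, and over the 747 genes between 769 and 1305 bp long, the range of the 7, it was 13.3%. A peak overlapped 1 of the 7, E(spl)mbeta-HLH, against 14.0% of all placed genes and 5.09% of those in the same range of lengths. With the 11 base overlap at E(spl)mbeta-HLH inside the error of the shift, the count of overlaps is 0 or 1. The gap to the nearest peak ran from 0 to 7.70 kb, with a median of 1.65 kb, against 9.38 kb over all placed genes and 12.8 kb over those of similar length. The 7 genes had only 4 different nearest peaks among them and sit side by side, so they are not 7 separate observations. No test was made of these differences.

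The number of genes near a peak depended on the distance allowed. It was 1 of 7 at 500 bp (16.5% of placed genes), 4 at 2 kb (25.2%) and 6 at 5 kb (36.4%). The count at 500 bp is uncertain, since the gaps of E(spl)m8-HLH (560 bp) and E(spl)m3-HLH (664 bp) lie within about 250 bp of that limit. Among peaks scoring above the median of the list, 2 of the 7 kept a peak within 1 kb, E(spl)mbeta-HLH and E(spl)m8-HLH, against 11.7% of placed genes.

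The other genes of the complex showed the same mixture. The Bearded family genes (suffix BFM) encode small proteins that inhibit the ubiquitin ligase Neuralized. E(spl)malpha-BFM lay 205 bp from peak 6 and E(spl)m2-BFM 85 bp from peak 7, while E(spl)m4-BFM and E(spl)m6-BFM lay 2.66 and 7.52 kb from the nearest peak. E(spl)m1, listed in the table as Kaz-m1 and encoding a protein with a protease inhibitor domain, lay 1.07 kb from peak 7. With gro, 3 of these 6 genes had a peak within 1 kb of an end, against 19.7% of placed genes. At the shift used only gro was overlapped, 1 of 6 against 14.0% of placed genes. The gaps of E(spl)malpha-BFM and E(spl)m2-BFM are within the error of about 250 bp, so this count is uncertain too. These 6 genes are neighbours that share peaks and are not separate observations.

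At the edges of the stretch, the peaks covered ends of genes with general cellular roles. Peak 1 (21808637 to 21809469, 833 bp, score 91.76) covered the left end of Nf1, which encodes neurofibromin, a negative regulator of Ras. It lay 13.9 kb from the nearest bHLH gene. Peak 10 (21877889 to 21878585, 697 bp, score 53.53) covered 91 bases of Exo84, an exocyst subunit gene, and 43 bases of Vps2, a gene of the membrane remodelling complex ESCRT-III. It lay 11.2 kb from E(spl)m8-HLH. Beyond these edges the list was empty for 93.7 kb to the left of peak 1 and 46.2 kb to the right of peak 10.

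Of the 19 other genes with their left end in the stretch, 7 had a peak within 1 kb of an end, against 19.7% of placed genes. They were Nf1, Exo84, Vps2, lncRNA:CR45037, lncRNA:CR45039, lncRNA:CR43643 and lncRNA:CR43644. Neighbouring genes share peaks, as Exo84 and Vps2 share peak 10, so these genes are not separate observations. The block to the right of Vps2 (Cmpk, Sld5, CG14543, Tcs6, PIG-P, RpL34a, Trmt61 and CG14551) had none, with gaps from 1.37 to 8.40 kb.

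Set against the rest of the arm, the stretch held more peaks than most windows and had a median score near that of the arm. Its 10 peaks per 100 kb (exact 95% Poisson interval 4.80 to 18.4, counting error only) compared with a median of 2 and a mean of 2.85 ± 2.75 (SD over 278 full windows of 3R). Windows with at least 10 peaks, this one included, made up 2.88% of the 278. The 7 windows with more were led by 12000001 to 12100000 with 17 peaks, followed by 5900001 to 6000000 and 17400001 to 17500000 with 15 each, and 54 windows had none. Windows of an arm are neighbours and not replicates, so this rank is a description. The count was uneven within the stretch, with 8 peaks in its left 50 kb and 2 in its right 50 kb.

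**Figure D4:**
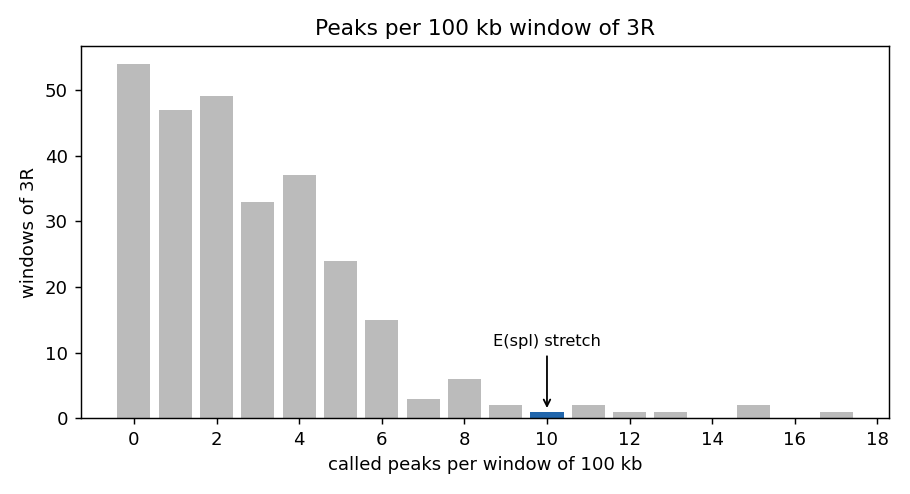
Bars count the full windows of 100 kb on 3R (vertical axis) by the number of called peaks in them (horizontal axis). The E(spl) stretch, in blue, is the only window with 10 peaks, and 7 windows hold more.

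The scores of the 10 peaks ran from near the lowest of the arm to its rank 19. Their median of 31.52 (97.9% interval from order statistics 9.49 to 91.76) compared with 26.36 over the 788 peaks of 3R. The interval treats the 10 peaks as independent draws, which neighbouring peaks of 1 list are not, and it holds no replicate error. Of the 10, 5 peaks lay above the arm's median and 5 below. Among the 224 windows with any peak, 112 had a higher median score than the stretch and 111 a lower one. Peaks 1 and 9 were above the arm's upper quartile of 58.86. Peaks 4, 6, 7 and 8 were below its lower quartile of 14.72. The highest score in the stretch, 196.32, was exceeded by the highest score of 18 other windows. In the 8 windows with 10 or more peaks, median scores ran from 15.1 to 35.75. The peaks were 231 to 1908 bp wide, with a median width of 637 bp (495.5 bp for the arm), and together covered 7.58 kb.

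**Figure D5:**
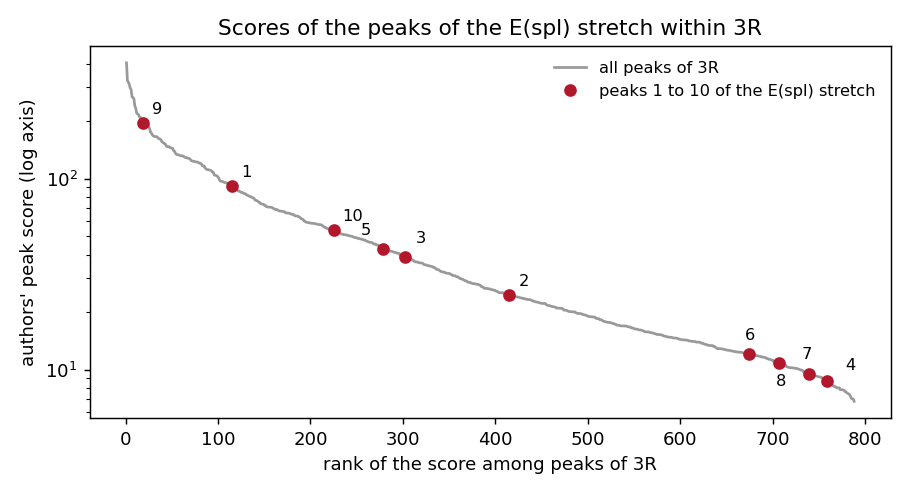
The grey line gives the authors' score (log axis) of all 788 peaks of 3R in order of rank, and the red points are peaks 1 to 10 of the stretch. Peak 9 ranks 19, and peaks 4, 6, 7 and 8 sit at the low end, with scores from 8.76 to 12.04.

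Other genes of the Notch pathway that lie on 3R were placed in the same way. The ligand gene Delta held 1 weak peak inside it (score 13.92), 7.86 kb from its nearer end, and the ligand gene Ser lay 20.6 kb from any peak. Nct, which encodes the nicastrin subunit of the protease that frees the intracellular domain, lay 821 bp from a peak of score 15.24. The gene rumi, for an enzyme that adds glucose to Notch, lay 49 bp from a peak of score 29.7. The gene for the ubiquitin ligase Neuralized, neur, lay 5.64 kb from a peak of score 17.8.

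Of the 14 genes placed from the rest of the complex and the pathway, 4 were overlapped by a peak, against 14.0% of placed genes of all lengths. The count holds for the shift used, since E(spl)malpha-BFM, E(spl)m2-BFM and rumi lay within about 250 bp of a peak. These 4 genes are long, from 6978 bp (H) to 23487 bp (Delta), and were not compared with genes of their own length. The highest overlapping peak of 3 of them, the corepressor genes gro, H and CtBP, scored over 100. These peaks ranked 19, 35 and 82 of the 788 on 3R. The share of all overlapped genes with a peak scoring over 100 was not computed. H, which encodes the Su(H) antagonist Hairless, was overlapped by a peak of score 163.34 that covered one of its ends. CtBP, whose product Hairless recruits together with Groucho, held 2 peaks, the higher with a score of 119.28. The peak at gro scored 196.32, and the fourth gene overlapped was Delta, at 13.92. The grouping into corepressors was made after the values were seen. The proneural gene ato, whose product E(spl) proteins oppose, lay 7.94 kb from a peak of score 20.03. Of the 14 genes, 7 had a peak within 1 kb of an end, again against 19.7% of placed genes. The complex genes among the 14 are neighbours in a stretch with many peaks, so the 14 are not separate observations. The one relative with a similar bHLH-Orange protein on 3R, cwo, lay 35.7 kb from any peak.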

How the data were processed

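The list came from 2 precipitated and 2 input libraries. Per the file headers, the authors' peaks are on FlyBase release 5 and named as MACS peaks. The submitters' processing notes list BWA, MACS2 and CASAVA in versions 1.7.0.3 and 1.7.0.2, with no settings. How input and replicates entered the calling is not given in the sources used here. The deposited score and the first and last base of each peak (counted from 1) were the only values used. Read depth per library is unknown.

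The gene table is on release 6 (RefSeq). The 3R genes were moved by the shift given in the report, which left 4206 of 4226 genes on the release 5 arm. As the table has no strand, distances planned from gene starts were taken from the nearer annotated end. A peak touching a gene by 1 base overlaps it. The planned motif counts were not run and no sequences are shown, since none were used here. The members and gene lists were chosen with earlier results of these data known. Genes named were the 7, the other complex genes, the remaining genes of the stretch, a fixed list of pathway genes and relatives (those on 3R), Ubx and the 3 fullest windows. The scan found the planted shift within 250 bp in 10 of 10 simulated lists of 788 peaks, a result the run was set to require. Planted peaks were spread evenly about gene ends, unlike the real list, whose counts peaked on both sides of the shift used. The simulation therefore checks the procedure and not the placement of these data. Python 3.11.15, numpy 2.4.6, pandas 2.3.3, scipy 1.17.1 and matplotlib 3.10.9 were used.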

Additional observations from a re-analysis of the deposited data

How the results depend on the processing

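Of 27 values computed under alternatives, 21 were labelled unchanged and 6 moved. Counts were held to 1.5 times the reported count, median scores to the stated interval and gaps to about 250 bp. The 21 include the gaps of the 7 bHLH genes, remeasured only with the shift from the scan, 248 bp away. These gaps could not move by more than that, so their label was fixed in advance. Counts in windows of 50 and 200 kb were not scaled for window size. The number of peaks in the stretch was 5 among peaks scoring above the median of the list, where 5.4% of windows of 3R had as many, and 7 with peaks within 1 kb merged (3.96%). Windows of 100 kb starting 50 kb later held 8 and 7 peaks, counts that 5.4% and 8.99% of such windows reach, against 2.88% for the 10 peaks reported. A window of 200 kb held 15 (5.04%), and the right 50 kb held 2, a number that 35.55% of windows of 50 kb reach. The count of bHLH genes near a peak was 1 at 500 bp and 6 at 5 kb. The count overlapped by a peak was 0 when at least 50% of the peak had to lie in the gene. It was also 0 with the shift taken from the scan, an alternative added after the data were seen. That shift lies above the one used, and none below the one used was tried. The median score of the stretch was 42.79 after merging, above the arm's 29.64, but among peaks above the list's median it was 53.53, below the arm's 58.64, which turns the direction of the difference. Since peaks have no values by library, omitting a replicate could not be tried. No paired analysis was possible because single libraries have no scores here.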

Other observations

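Over the whole of 3R, peaks that covered an annotated gene end scored higher than the others. There were 271 of them (34.4% of 788), with a median score of 44.9 and a median width of 669 bp. The 413 peaks wholly inside a gene had a median score of 20.98 and a width of 461 bp, and the 104 between genes had 23.48 and 396 bp. In the E(spl) stretch at the shift used, 6 peaks covered a gene end, with a median score of 46.07, and 4 lay between genes, with a median of 10.77. Peaks 2 and 10 covered gene ends by 91 bases or fewer, and peaks 4, 6 and 7 missed a gene by 85 to 205 bp. All are within the error of about 250 bp, so this split and both its medians are uncertain. The classes over the whole arm rest on the same shift, and their difference in width was not allowed for. All these values are descriptions of 1 list, chosen after it had been read, and no test was made.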
